A study of Mus musculus with 7 samples.

Results

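The genes described here are 10 cytokines made by macrophages: Tnf, Il6, Il1a, Il1b, Il1rn, Il10, Il15, Il18, Osm and Tgfb1. They were chosen by name, as the inflammatory and regulatory cytokine genes of this cell type, and the choice used no measured value, although the set was proposed with earlier results of these data known. All 10 were found among the 24084 genes listed in at least 1 of the 7 RNA-seq libraries, and all 10 were counted in every library and passed the filter on low counts. The libraries were made from F4/80-positive cells, sorted as tumor-associated macrophages from Lewis lung carcinomas, subcutaneous tumors of a mouse lung cancer cell line. In 3 libraries the mice were homozygous for LysM-Cre and for the Dicer lox allele (D–/–), so that Dicer1 was deleted in myeloid cells, and in 4 control libraries they were homozygous for LysM-Cre with intact Dicer (D+/+). The Cre recombinase was thus present in both groups. It is expressed from the lysozyme M locus, which is active in macrophages, monocytes and neutrophils, so other myeloid cells of these mice can carry the deletion too. The product of Dicer1 is the nuclease that releases mature microRNAs from their hairpin precursors, and the comparison asked how its loss alters the activation of macrophages in a tumor. Neither the age and sex of the mice nor the number of animals behind each library is given by the labels, so p-values reflect only how these libraries vary, which may be technical.

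Cytokines are secreted proteins through which immune cells act on their neighbours. Interleukin 1 alpha and beta, tumor necrosis factor, interleukin 6, interleukin 18 and oncostatin M promote inflammation, and interleukin 10 and transforming growth factor beta 1 restrain it. The interleukin 1 receptor antagonist, the product of Il1rn, occupies the interleukin 1 receptor without signalling, and the interleukin 18 binding protein captures secreted interleukin 18. Interleukin 1 beta and interleukin 18 are made as precursors that caspase-1 cuts in an inflammasome, so their RNA does not show how much active protein is released. Many cytokine messages are short-lived, and AU-rich stretches of their 3′ UTR, the part after the stop codon, are known to mark them for decay.

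Sequences of the members' 3′ UTRs are shown because they are the parts of these messages on which decay factors and microRNAs are known to act. The AU-rich heptamer TATTTAT, in DNA letters, was looked for in each gene's longest annotated 3′ UTR (GENCODE mouse release 21, GRCm38), on the strand of the message only and with overlapping matches counted. The 30-base window with the most matches is printed for each member that held any, with the matches in capitals.
Tnf: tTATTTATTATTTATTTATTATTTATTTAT
Il10: ctctctccgaaaTATTTATtacctctgata
Il1b: cacttaccTATTTATTTATgTATTTATtga
Il1a: tctatgTATTTATaaataTATTTATgataa
Osm: gttttaTATTTATaaggccTATTTATaatg
Il6: atttatgattgaTATTTATtatttttatga

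Tnf, Il6, Il1a, Il1b, Osm and Il10 held the heptamer, and Il1rn, Il15, Il18 and Tgfb1 did not. Tnf had 8 matches in 764 bases, of which 5 lie in the window above. Il10 had 4, Il1b 3 in 459 bases, Il1a 3 in 1101 bases, Osm 3 in 1017 bases and Il6 1 in 1668 bases. The heptamer occurred in 29.3% of the 12152 tested genes with an annotated 3′ UTR. Among genes whose 3′ UTR was within 20% of the same length, as many matches as in Tnf were found in 0.0718%, as many as in Il1b in 0.303% and as many as in Il10 in 0.596%. In the 4 members without a match, 3′ UTRs of like length held one in 34.9% of genes for Il1rn, 11.4% for Il15, 7.04% for Il18 and 9.28% for Tgfb1.

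Matches to microRNA seeds are shown because Dicer1 makes the mature microRNAs. The seed is bases 2 to 8 of the microRNA, printed in capitals, and a match is its reverse complement in the longest annotated 3′ UTR. Of 7 microRNAs known from myeloid cells that were searched, 2 are printed with their matches in the interleukin 1 genes and Tnf (microRNA sequences from RefSeq, GRCm38.p6).
miR-125b-5p: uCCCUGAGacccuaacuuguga
Tnf match to miR-125b-5p: ggggattatggCTCAGGGtccaactctgtg
Il1b match to miR-125b-5p: aagacaggtcgCTCAGGGtcacaagaaacc
Il1rn first match to miR-125b-5p: tatgcttccagCTCAGGGgggcacttttaa
Il1rn second match to miR-125b-5p: ttaaagctcttCTCAGGGgttcagttttcc
let-7a-5p: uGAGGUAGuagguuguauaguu
Il1a match to let-7a-5p: ctacatctttcCTACCTCagtgggttttac

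The miR-125b-5p seed matched 3 of the 10 members, and the same seed matched 16.7% of tested genes. The let-7a-5p seed matched Il1a and 11.8% of tested genes. Seeds of miR-223-3p and miR-21a-5p each matched Il6, and they matched 9.82% and 8.18% of tested genes. Those of miR-155-5p, miR-146a-5p and miR-142a-3p matched no member in these 3′ UTRs. The levels of the microRNAs were not analysed here, and a match is a description of letters only.

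Depth was similar between groups, at 42974524 to 51152370 uniquely placed reads per library. Dicer1 itself was at 7.85, 6.86 and 7.86 counts-per-million (CPM, scaled between libraries by the TMM method) in the Dicer1-deleted libraries, against 15.7 to 18.6 CPM in the controls, so its reads fit the labels. Its log2 fold change was -1.16 (adjusted p = 0.150 in edgeR and 4.955e-05 in DESeq2), so edgeR, the main test below, did not call the deleted gene itself. All 12 macrophage markers were read in every library, with a summed level of 13710 to 21110 CPM in the Dicer1-deleted libraries and 13650 to 21630 CPM in the controls. Lyz2, the locus that carries the Cre in both groups, was the 1 macrophage marker called in DESeq2, at 53.0, 67.2 and 50.7 CPM against 134, 212, 107 and 103 CPM (log2 fold change -1.29, adjusted p = 0.0144). Dicer1-deleted library 2 stood apart: its quality weight in limma-voom was 0.232, against 0.924 to 2.12 in the others, and Adgre1, which encodes F4/80, was at 233 CPM there and at 418 to 1072 CPM elsewhere. That library was the highest of all 7 for Il6, Il1b, Il10 and Tgfb1, so the results below are given with and without it where it matters. Some genes used as markers of other cells also differed between the groups. The summed level of 10 B cell markers was 144 to 191 CPM with Dicer1 deleted and 41.4 to 86.4 CPM in the controls, most of it from Ighm, Bank1 and Cd79b. Of 6 tested, DESeq2 called these 3 higher (adjusted p = 0.00915, 2.475e-05 and 0.0161) and 0 lower, where 0.924% of all genes were called higher. edgeR called 0 of the 6. Pax5 was at 0 in 6 of 7 libraries, and Igkc and Jchain had log2 fold changes of -2.36 and -1.85 (DESeq2 adjusted p = 0.400 and 0.716). The summed level of 20 T and NK cell markers was 37.8 to 82.7 against 17.4 to 35.7 CPM. Without Klrk1, at 20.7 to 52.5 against 1.57 to 19.0 CPM, the sum of the other 19 was 13.8 to 32.1 against 14.7 to 16.7 CPM and overlapped. Single markers went both ways, and of 18 tested DESeq2 called 1 higher and 1 lower. Nkg7 was higher, at 2.64 to 6.02 against 0.673 to 1.73 CPM (DESeq2 adjusted p = 0.0410). Cd2 was lower, with a log2 fold change of -1.70 (DESeq2 adjusted p = 0.000743). Cd3g was higher without overlap at low levels, 1.29 to 1.67 against 0.0898 to 0.729 CPM (DESeq2 adjusted p = 0.199). The sum of 12 tumor, epithelial and stromal markers was 61.0 to 105 against 33.0 to 52.5 CPM, with Pecam1 at 36.3 to 69.6 against 3.23 to 11.9 CPM. Pecam1 was the 1 of 11 tested genes of that list called in DESeq2. Dcn, Col3a1 and Cdh1 had the next highest levels, up to 13.6, 10.4 and 12.5 CPM, and overlapped between the groups. The sum of 10 dendritic cell markers was 14.2 to 17.3 against 9.02 to 148 CPM and overlapped. Of 9 tested, DESeq2 called 2 higher and 1 lower, each without overlap between the groups. Xcr1 and Batf3 were higher, with log2 fold changes of 2.398 and 1.91 (DESeq2 adjusted p = 0.000756 and 0.0192). Ccr7 was lower, with a log2 fold change of -3.25 (DESeq2 adjusted p = 0.00999). The part of these other cells in the results below was not tested.

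Il1b was by far the most abundant of the 10 messages, and Tgfb1 the least. To compare genes with one another, the authors' deposited RPKM values (reads scaled to gene length and library total) were used. Il1b ranked first of the 10 in all 7 libraries, at 540 to 2946 RPKM, and Il1rn second in all 7, at 232 to 448 RPKM. Tgfb1 ranked last in all 7, at 1.03 to 4.37 RPKM. In each library Il1b was thus 292 to 1303 times as high as Tgfb1 per length. Il1b alone held 0.106% to 0.582% of all uniquely placed reads and ranked between place 19 and 118 among all genes by reads. Between these ends the order was Osm (control mean 83.5 ± 51.2 RPKM, SD, n = 4), Il18 (75.3 ± 23.8), Il1a (35.1 ± 42.0), Tnf (32.2 ± 26.8), Il15 (17.7 ± 1.46), Il6 (6.32 ± 3.96) and Il10 (6.18 ± 3.02). Apart from Il15 and Il6, neighbours in that middle order were closer than the SD of at least one of them. The ranges of Osm (rank 3 to 5), Il18 (rank 3 to 6), Il1a (rank 3 to 8) and Tnf (rank 4 to 6) over the libraries crossed one another.

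**Figure D1:**
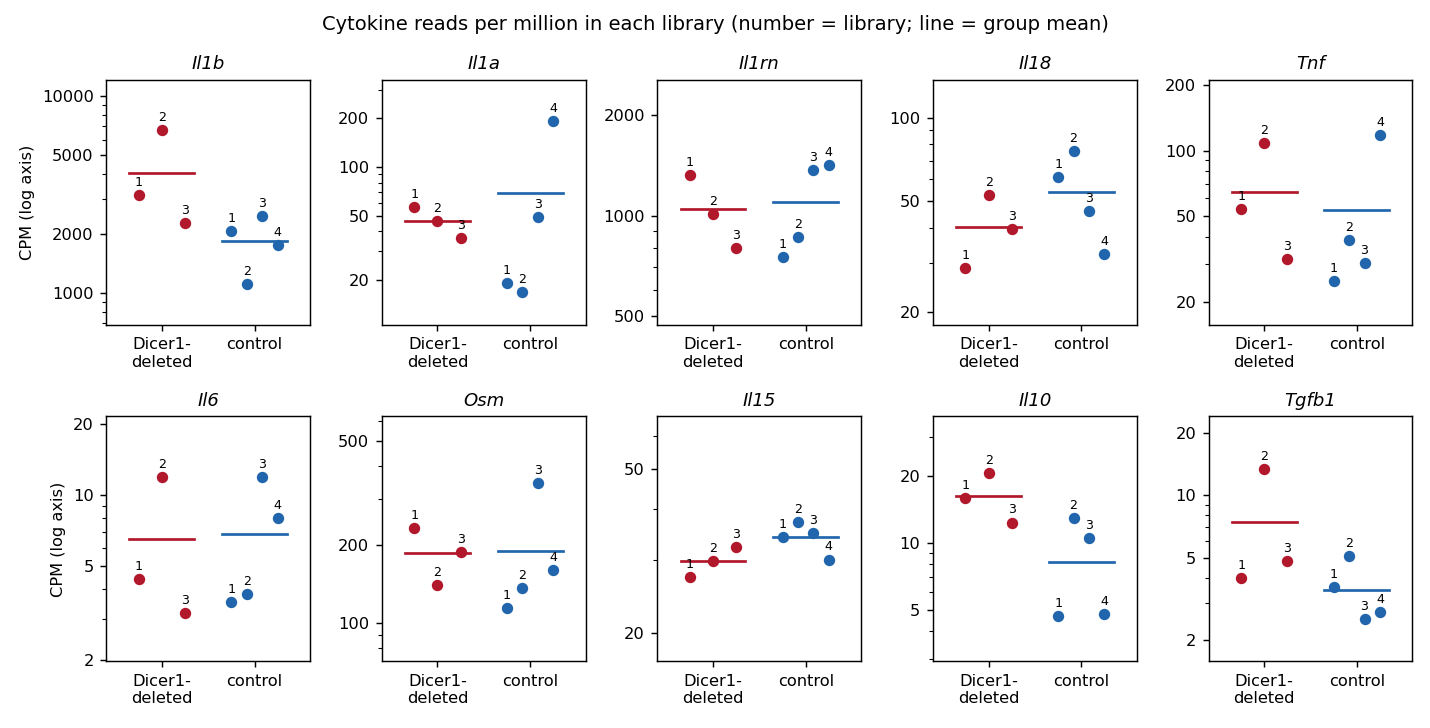
Reads of each cytokine gene in counts-per-million (log axis) in the 3 Dicer1-deleted and 4 control libraries, with the library number above each point and a line at the group mean. In every panel the groups overlap, and library 2 is the highest Dicer1-deleted library for Il1b, Il18, Tnf, Il6, Il10 and Tgfb1.

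No cytokine of the 10 passed the test between Dicer1-deleted and control macrophages. In edgeR's quasi-likelihood test, 0 of 10 members had a Benjamini-Hochberg adjusted p under 0.05, with the lowest at 0.489, and the test called 0.0247% of the 16226 genes tested. DESeq2 called 0 of 10 as well, with a lowest adjusted p of 0.183, and 2.50% of all genes. At an unadjusted p under 0.05 edgeR gave 3 of 10 members, Il1b, Il10 and Tgfb1, against 8.01% of all genes. All 3 were higher in the Dicer1-deleted libraries, a direction held at that p by 3.88% of all genes in edgeR. DESeq2 gave 3 at that p too, but its share of all genes is not given, so that count cannot be judged against it. For 0 of 10 members did the groups not overlap, compared with 9.31% of all genes. Of the 10 log2 fold changes 4 were positive and 6 negative, with a median of -0.04 against 0.03 over all genes. These figures do not show that the groups were alike, as the standard errors below ranged from 0.22 to 0.77 on the log2 scale. Where a level differs in sorted cells, fewer cells that make a message and less RNA per cell cannot be told apart.

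Among the interleukin 1 genes, Il1b had the largest log2 fold change of the 10 members in edgeR with all libraries, and Il1a the widest spread. Without Dicer1-deleted library 2, Il6 (-0.85), Il10 (0.78), Il18 (-0.66) and Il1a (-0.59) were farther from 0 than Il1b (0.55). In limma-voom Il10 (1.09) was above Il1b (1.05). Il1b encodes the secreted interleukin 1 beta, and lies on the minus strand at chr2:129364570-129371139 (GENCODE positions on GRCm38, here and below). It was at 3150, 6709 and 2274 CPM in Dicer1-deleted libraries 1, 2 and 3, and at 2050, 1103, 2447 and 1753 CPM in control libraries 1 to 4. Dicer1-deleted library 2 was 2.13 times as high as the next library, and the groups overlapped because control library 3 exceeded Dicer1-deleted library 3. The log2 fold change was 1.14 ± 0.43 (SE; unadjusted p = 0.0250, adjusted p = 0.489 in edgeR). Without Dicer1-deleted library 2 it was 0.55, with an unadjusted edgeR p of 0.116. Neutrophils and monocytes also make Il1b: the summed level of 13 neutrophil markers was 254 to 315 CPM in the Dicer1-deleted and 177 to 627 CPM in the control libraries, and that of 7 monocyte markers 794 to 1520 and 790 to 3825 CPM. Single markers differed from these sums. Mmp9, at 366 and 537 CPM in control libraries 1 and 3, made up most of the neutrophil sum there. Mmp8 was higher without overlap, at 105, 147 and 106 against 62.5, 57.6, 37.7 and 31.1 CPM (DESeq2 adjusted p = 0.00582). Csf3r was also higher without overlap, at 32.0, 26.4 and 22.8 against 11.4, 13.7, 22.1 and 11.1 CPM (DESeq2 adjusted p = 0.155). S100a8, S100a9, Ly6c2 and Plac8 were highest in Dicer1-deleted library 2, as Il1b was, with S100a9 at 15.2 CPM there and 0.255 to 2.74 CPM elsewhere, while Ly6g was at 0 in the other 6 libraries and at 0.102 CPM in that one. The part of these cells in the Il1b reads was not tested. An antisense gene, Il1bos, shares 25 of the 1907 exonic bases of Il1b, and the libraries keep no strand.

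Il1a encodes interleukin 1 alpha, which is active as the full-length protein and is released by damaged cells, and lies beside Il1b at chr2:129299610-129309972. It was at 56.6, 46.3 and 36.3 CPM in the Dicer1-deleted libraries, against 19.0, 16.9, 48.9 and 192 CPM in the controls. The Dicer1-deleted libraries fell inside the range of the controls, whose highest library was 11.4 times the lowest. A log2 fold change of -0.58 ± 0.77 (SE) resulted (adjusted p = 0.996 in edgeR), and without control library 4 it was 0.72. The gene Gm14023 shares 222 of 1974 exonic bases with Il1a on the other strand.

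Il1rn, the antagonist gene on the same chromosome (chr2:24336853-24351494), was at 1325, 1012 and 802 CPM in the Dicer1-deleted libraries, against 754, 863, 1373 and 1422 CPM in the controls. Its groups covered nearly the same range, and the log2 fold change was -0.08 ± 0.33 (SE; adjusted p = 0.996 in edgeR).

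Reads of the agonist relative to its antagonist were compared within each library. The log2 ratio of Il1b to Il1rn was 1.25, 2.73 and 1.503 in the Dicer1-deleted libraries and 1.44, 0.35, 0.83 and 0.30 in the controls. Only Dicer1-deleted library 1 lay below a control, library 1. Il1b reads were thus 2.38 to 6.63 times those of Il1rn in Dicer1-deleted cells and 1.23 to 2.72 times in control cells. The mean log2 ratio was 1.83 ± 0.79 (SD, n = 3) and 0.73 ± 0.53 (SD, n = 4), a difference of 1.09 (two-sided exact permutation test, p = 0.0857, and 0.129 after Benjamini-Hochberg adjustment over 3 ratios). Without Dicer1-deleted library 2 the difference was 0.64. The smallest p that 3 against 4 libraries can give is 0.0286.

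Il18, whose product drives interferon gamma production by lymphocytes, was lower on average in Dicer1-deleted cells without passing the test. Its levels were 28.8, 52.7 and 39.6 CPM in the Dicer1-deleted libraries, against 61.3, 76.0, 46.0 and 32.2 CPM in the controls. Control libraries 3 and 4 were within the range of the Dicer1-deleted libraries, and control libraries 1 and 2 lay above it. The log2 fold change of Il18 (chr9:50554827-50581840) was -0.42 ± 0.35 (SE; adjusted p = 0.962 in edgeR).

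The gene of its inhibitor, Il18bp, was higher on average in Dicer1-deleted cells. Il18bp was at 87.1, 222.5 and 61.2 CPM in the Dicer1-deleted libraries, against 33.2, 39.9, 14.5 and 42.9 CPM in the controls, so that every Dicer1-deleted library was above every control. Its log2 fold change was 1.92 ± 0.50 (SE), which passed in DESeq2 (adjusted p = 0.0143) and not in edgeR (adjusted p = 0.254). The fold change was 1.17 without Dicer1-deleted library 2, and the DESeq2 call was lost without it (adjusted p = 0.151) and without control library 1 (adjusted p = 0.0671). Il18bp shares 80 of 3026 exonic bases with Numa1 on the other strand.

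Within libraries, the log2 ratio of Il18 to Il18bp was -1.60, -2.08 and -0.63 in the Dicer1-deleted libraries and 0.88, 0.93, 1.67 and -0.42 in the controls. All Dicer1-deleted libraries lay below all controls, with control library 4 the closest, and in 3 of 4 controls Il18 had more reads than Il18bp. The means were -1.44 ± 0.74 (SD, n = 3) and 0.77 ± 0.87 (SD, n = 4), a difference of -2.20 (two-sided exact permutation test, p = 0.0571, adjusted p = 0.129). The difference stayed between -2.60 and -1.88 when any 1 library was left out.

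**Figure D2:**
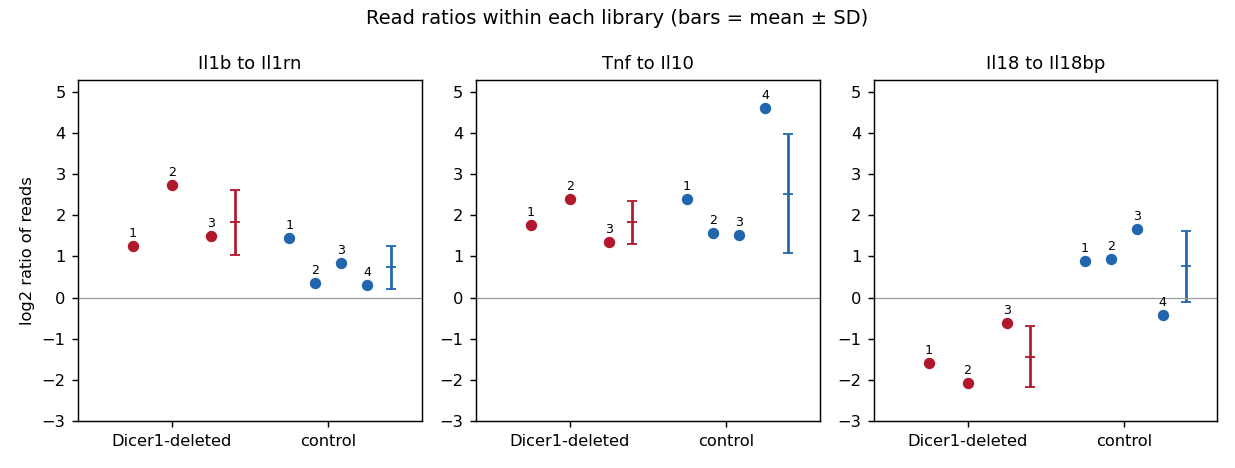
Log2 ratio of reads within each library for Il1b to Il1rn, Tnf to Il10 and Il18 to Il18bp, with points numbered by library and bars at the mean ± SD of the 3 Dicer1-deleted and 4 control libraries. The Il18 to Il18bp ratios do not overlap between groups, from -2.08 to -0.63 against -0.42 to 1.67, and the Tnf to Il10 ratio of control library 4 stands alone at 4.62.

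For the other inflammatory cytokines, differences between libraries of one group were larger than those between groups. Tnf encodes tumor necrosis factor (chr17:35199381-35202007). It was at 53.7, 108 and 31.6 CPM in the Dicer1-deleted libraries, against 25.03, 38.4, 30.04 and 118 CPM in the controls. One library of each group, Dicer1-deleted library 2 and control library 4, stood above 100 CPM, while the other 5 were at 53.7 CPM or less. The summed level of 17 immediate early and stress genes known to respond to cell isolation was 3981 and 3362 CPM in those 2 libraries and 2996 to 4923 CPM in the others. Single genes differed from this sum. Hspa1a was highest in those 2, at 46.2 and 47.1 CPM, against 13.7 to 32.1 CPM in the others. Fos was at 928 and 1295 CPM there and at 963 to 1688 CPM in the others. The part of cell isolation in the Tnf reads was not tested. The log2 fold change of Tnf was 0.29 ± 0.59 (SE; adjusted p = 0.996 in edgeR). It was 1.05 without control library 4, with an unadjusted p of 0.0487 and an adjusted p of 0.689 in edgeR, and -0.33 without Dicer1-deleted library 2.

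Il6 encodes interleukin 6, which acts on hepatocytes and lymphocytes (chr5:30013114-30019981). It was low, at 4.40, 12.0 and 3.16 CPM in the Dicer1-deleted libraries, against 3.52, 3.82, 12.0 and 7.98 CPM in the controls. Each group had a library at 12.0 CPM and one under 4, and the log2 fold change was -0.07 ± 0.57 (SE; adjusted p = 0.999 in edgeR).

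Osm, the gene of oncostatin M, a relative of interleukin 6 (chr11:4236420-4241026), was at 231, 140 and 187 CPM in the Dicer1-deleted libraries, against 114, 136, 346 and 159 CPM in the controls. The control range enclosed the Dicer1-deleted one, and the log2 fold change was -0.02 ± 0.41 (SE; adjusted p = 0.999 in edgeR). This value turned to 0.45 without control library 3, the highest for Osm.

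Il15, which sustains NK cells and memory T cells, was the steadiest of the 10. It was at 27.3, 29.9 and 32.4 CPM in the Dicer1-deleted libraries, against 34.1, 37.3, 34.9 and 30.1 CPM in the controls. Dicer1-deleted libraries 1 and 2 were below all controls, and library 3 was above control library 4 only. The log2 fold change of Il15 (chr8:82331632-82403222) was -0.19 ± 0.22 (SE; adjusted p = 0.996 in edgeR), and it kept its sign without any 1 library.

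The regulatory cytokines Il10 and Tgfb1 were both higher on average in Dicer1-deleted cells and neither passed the test. Il10 encodes interleukin 10, which dampens macrophage activation (chr1:131019845-131024974). It was at 15.9, 20.5 and 12.3 CPM in the Dicer1-deleted libraries, against 4.70, 12.9, 10.5 and 4.79 CPM in the controls. The groups overlapped by a narrow margin, as control library 2 was just above Dicer1-deleted library 3. Without the TMM factors this order turned, with Dicer1-deleted library 3 at 12.97 and control library 2 at 12.39 CPM. Il10 was then the 1 member without overlap, and the share of all genes is not given for that setting. Its log2 fold change was 0.98 ± 0.41 (SE; unadjusted p = 0.0380, adjusted p = 0.569 in edgeR), and 0.78 without Dicer1-deleted library 2.

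Tgfb1 encodes transforming growth factor beta 1, which is stored in a latent form and restrains T cells (chr7:25687002-25705077). It was at 3.98, 13.4 and 4.82 CPM in the Dicer1-deleted libraries, against 3.61, 5.07, 2.52 and 2.74 CPM in the controls. Dicer1-deleted library 2 was 2.63 times as high as the next library, while the other Dicer1-deleted libraries lay within the control range. Its log2 fold change was 1.09 ± 0.47 (SE; unadjusted p = 0.0438, adjusted p = 0.593 in edgeR) and 0.34 without that library.

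The ratio of Tnf to Il10 set an inflammatory against a regulatory message of the same cells. On the log2 scale it was 1.75, 2.40 and 1.36 in the Dicer1-deleted libraries and 2.41, 1.58, 1.52 and 4.62 in the controls. Control library 4 had 24.6 times as many Tnf as Il10 reads, and the other 6 libraries 2.56 to 5.31 times as many. The means were 1.84 ± 0.53 (SD, n = 3) and 2.53 ± 1.45 (SD, n = 4), a difference of -0.69 (two-sided exact permutation test, p = 0.629, also after adjustment). Without control library 4 the difference was 0.003.

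The unadjusted p of Il1b, Il10 and Tgfb1 depended on single libraries. With Dicer1-deleted library 2 left out, 0 members had an unadjusted p under 0.05 in edgeR, against 9.42% of all genes, and with each other library left out there were 1 to 3, against 5.73% to 7.76%. Il1b stayed under 0.05 without Dicer1-deleted library 1 or 3 or control library 1 or 3, Il10 without Dicer1-deleted library 3 or control library 2 or 3, and Tgfb1 without Dicer1-deleted library 1 or 3 or control library 2. The 1 member under 0.05 without control library 4 was Tnf. The sample titles carry a code, L4 or L5, whose meaning is not given. L4 holds Dicer1-deleted libraries 2 and 3 and control library 2, and L5 the other 4. The difference of mean log2 CPM within L4 and within L5 was 1.82 and 0.61 for Il1b, 0.30 and 1.36 for Il10, and 0.66 and 0.45 for Tgfb1. Each of these genes thus kept its direction within both codes, with only 1 library on a side in each.

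**Figure D3:**
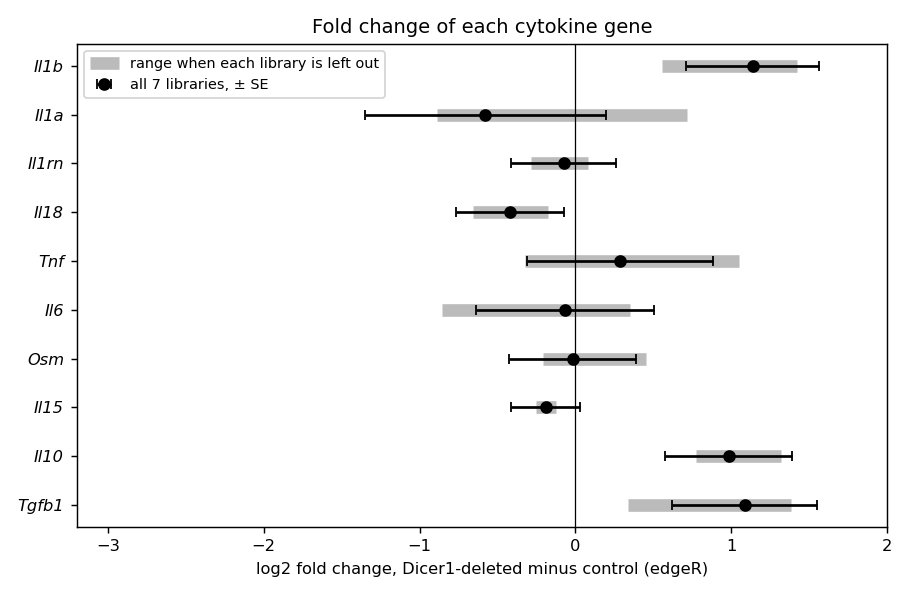
Log2 fold change of each cytokine gene, Dicer1-deleted minus control, from edgeR with all 7 libraries (points, ± SE), and the range of the same value when each library is left out in turn (grey bars). The grey bars of Il1b, Il10 and Tgfb1 stay above 0 and those of Il18 and Il15 below it, while those of the other 5 cross 0.

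The members differed widely in how much they varied between libraries, whatever the group. The highest library over the lowest was 11.4 for Il1a, 6.08 for Il1b, 5.31 for Tgfb1, 4.72 for Tnf, 4.37 for Il10, 3.80 for Il6, 3.04 for Osm, 2.64 for Il18, 1.89 for Il1rn and 1.37 for Il15. The median over 13271 genes with a mean of at least 1 CPM was 2.58. Within the 4 controls alone, the coefficient of variation of Il1a was 120% and that of Tnf 82.9%, against a median of 26.8% over the same genes, and that of Il15 was 8.70%. The 6 members with the AU-rich heptamer printed above had ratios of 3.04 to 11.4, and the 4 without it 1.37 to 5.31. Over all genes with an annotated 3′ UTR and a read in every library the ratio did not follow the heptamer: its median was 2.48 in 7391 genes without it, 2.41 in 2753 genes with 1 or 2 matches and 2.47 in 415 genes with 3 or more.

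**Figure D4:**
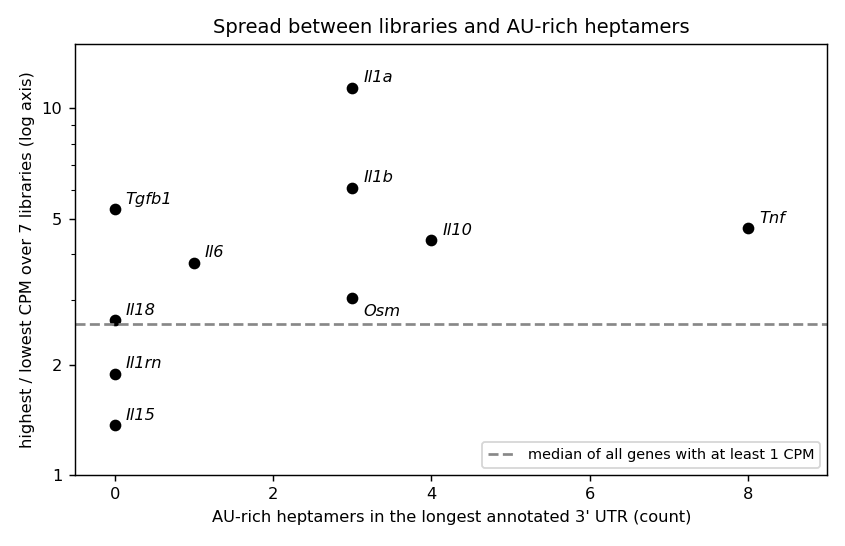
Highest over lowest CPM of each cytokine gene over the 7 libraries (log axis) against the number of AU-rich heptamers in its longest annotated 3′ UTR, with a dashed line at the median of all genes with at least 1 CPM, 2.58. Il1a, with 3 matches, had the highest ratio, 11.4, and Tnf, with 8, had 4.72.

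High and low libraries were not the same for all members. Control library 4 was the highest of the 7 for Tnf, Il1a and Il1rn, control library 3 for Osm, and control library 2 for Il15 and Il18. Control library 1 was the lowest for Tnf, Il1rn, Il10 and Osm. Across the 7 libraries, Pearson's r of log2 CPM was 0.80 between Il1a and Il1rn, 0.72 between Tnf and Il1a and 0.81 between Il15 and Il18, and -0.79 between Il1a and Il18. These are descriptions over 7 points of 2 groups that share depth and sorting.

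Of 10317 genes with a mean of at least 5 CPM, those most like single members by Pearson's r over the 7 libraries were read off as a description. Tgfb1 was closest to Ifnar2, a subunit of the interferon alpha and beta receptor, at 0.998. Il1b was closest to Rtp4, a gene induced by interferon, at 0.985. Both pairs share a high point in Dicer1-deleted library 2. For Il1rn the closest gene was Psd4 at 0.982, whose start lies 16.1 kb beyond the end of Il1rn on chromosome 2. Closest to Il18 was Ckap4 at 0.989 and to Il10 Ehbp1l1 at 0.981. Further closest genes were Eaf1 (Il1a, 0.975), Cdc37 (Il15, 0.974), Trabd (Il6, 0.964) and Piezo1 (Osm, 0.959).

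The receptors through which the 10 cytokines act, and their decoys, were read in the same libraries, and none passed in edgeR. All 22 such genes were tested. Their log2 fold changes had a median of 0.33, with 16 above 0. Il18bp was the 1 gene of the list called in DESeq2, where 0.924% of all genes were called higher. At an unadjusted p under 0.05 in edgeR were Il18bp, Osmr, Tgfbr1 and Il15ra, all higher, against 3.88% of all genes.

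Tgfbr1, the type I receptor for transforming growth factor beta, was at 299, 104 and 282 CPM in the Dicer1-deleted libraries, against 71.5, 59.8, 122 and 172 CPM in the controls. Here Dicer1-deleted library 2 was the lowest of its group, below control libraries 3 and 4. The log2 fold change was 1.11 ± 0.46 (SE; unadjusted p = 0.0397, adjusted p = 0.578 in edgeR). Tgfbr2, its partner, had a log2 fold change of -0.22 ± 0.24, and Tgfbr3 was under 2 CPM in every library.

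Il1r2 encodes the decoy receptor that binds interleukin 1 without signalling. It was at 176, 620 and 120 CPM in the Dicer1-deleted libraries, against 146, 16.1, 164 and 51.7 CPM in the controls. The groups overlapped, and the log2 fold change was 1.70 ± 0.78 (SE; adjusted p = 0.652 in edgeR), or 0.65 without Dicer1-deleted library 2. Il1r1, the signalling receptor, was read at 0.706 to 2.35 CPM in the 7 libraries, and its partner Il1rap at 7.88 to 58.5 CPM (log2 fold change -0.29 ± 0.58). Il1rl2 and Sigirr, other members of that receptor family, were under 4 CPM in every library, with log2 fold changes of -0.73 ± 0.85 and 0.45 ± 0.53.

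Il15ra, which presents interleukin 15 to neighbouring cells, was at 18.6, 22.4 and 14.0 CPM in the Dicer1-deleted libraries, against 14.7, 13.3, 10.2 and 9.62 CPM in the controls. Only control library 1 reached the Dicer1-deleted range, and the log2 fold change was 0.62 ± 0.27 (SE; unadjusted p = 0.0499, adjusted p = 0.623 in edgeR). The shared gamma chain Il2rg was high in all libraries, at 807 to 1365 CPM, and Il2rb, which is also a marker of NK cells, was under 3 CPM in all.

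The receptor gene of oncostatin M, Osmr, had very few reads, at 1.54, 0.508 and 0.598 CPM against 0.0839, 0, 0 and 0.273 CPM, so its fold change is not given. Lifr, which belongs to the same family, was at 60.9, 8.89 and 70.0 CPM in the Dicer1-deleted libraries, against 14.5, 15.9, 73.8 and 22.6 CPM in the controls, with full overlap. Il6ra and its signal transducer Il6st had log2 fold changes of 0.25 ± 0.30 and 0.30 ± 0.37. Those of the tumor necrosis factor receptors Tnfrsf1a and Tnfrsf1b were 0.52 ± 0.40 and 0.15 ± 0.30, and those of the interleukin 10 receptor chains Il10ra and Il10rb 0.36 ± 0.31 and -0.0006 ± 0.24. For interleukin 18, Il18r1 was at or near 0 in all libraries (at most 28 reads) and Il18rap was at 2.65 to 11.9 CPM.

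Beyond receptors, 3 further lists of the pathway were read: 24 genes of cytokine maturation and release, 16 factors of cytokine message decay and stability, and 29 other cytokines of myeloid cells. With the receptors these make 91 genes, of which 80 were tested. edgeR called 0 of the 80 (lowest adjusted p 0.156), with 12 at an unadjusted p under 0.05, against 8.01% of all genes. DESeq2 called 4, all higher, or 5.00% of those tested, against 0.924% of all genes called higher. The groups did not overlap for 9, against 9.31% of all genes, and 8 of the 9 were higher, against 3.86%. The lists were drawn up with earlier results of these data known, so these shares are not independent evidence about the pathway.

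Among other cytokines, Il27, Clcf1 and Il16 were the DESeq2 calls, each without overlap between the groups. Il27 encodes a subunit of interleukin 27, which is made by activated myeloid cells and acts on T cells. It was at 5.07, 9.04 and 2.60 CPM in the Dicer1-deleted libraries, against 0.797, 1.53, 0.729 and 1.37 CPM in the controls. The log2 fold change was 2.33 ± 0.49 (SE), with an adjusted p of 0.00115 in DESeq2 and 0.156 in edgeR. With each library left out, the DESeq2 adjusted p stayed between 0.000122 and 0.0466. Il27 shares 103 of 1021 exonic bases with Apobr on the other strand, and reads of those bases cannot be told apart without strand.

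Clcf1, a cytokine of the interleukin 6 family, was at 10.6, 14.4 and 7.09 CPM against 2.68, 2.47, 2.66 and 5.61 CPM. Its log2 fold change was 1.68 ± 0.39 (SE), with an adjusted p of 0.00863 in DESeq2 and 0.197 in edgeR. The DESeq2 call was lost without either of Dicer1-deleted libraries 1 and 2 or control libraries 1 and 3 (adjusted p 0.0541 to 0.0846). Clcf1 shares 311 of 3806 exonic bases with AC109138.7 on the same strand.

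Il16 encodes a chemoattractant of CD4+ cells that lymphocytes also express. It was at 26.4, 17.5 and 19.7 CPM in the Dicer1-deleted libraries, against 9.69, 12.6, 9.37 and 8.75 CPM in the controls, a log2 fold change of 1.07 ± 0.26 (SE), with an adjusted p of 0.00646 in DESeq2 and 0.221 in edgeR. That call was lost without Dicer1-deleted library 1 or 3 or control library 1 or 3 (adjusted p 0.0541 to 0.145). Il16 shares 1202 of 7865 exonic bases with Stard5 on the other strand. Of the lymphocyte markers given above, Ighm, Bank1, Cd79b, Klrk1, Nkg7 and Cd3g were also higher in every Dicer1-deleted library than in any control. Cd2 was lower, and the part of lymphocytes in the Il16 reads was not tested.

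In the maturation and release list, 2 of 22 tested genes were higher and 1 lower without overlap, where 9.31% of all genes did not overlap and 3.86% were higher, and none passed either test. Nlrc4, a sensor that builds an inflammasome, was at 37.5, 11.1 and 22.5 CPM against 6.42, 7.81, 10.9 and 10.9 CPM (log2 fold change 1.39 ± 0.40, SE, adjusted p = 0.310 in edgeR and 0.0514 in DESeq2), and its fold change was 0.90 without Dicer1-deleted library 1. Panx1, a membrane channel that lets out ATP, was at 8.39, 24.4 and 6.87 CPM against 5.49, 6.78, 4.38 and 4.51 CPM (1.32 ± 0.44, adjusted p = 0.402 in edgeR), and at 0.52 on the log2 scale without Dicer1-deleted library 2. Capn2, a calpain, was the lower gene, at 112, 92.5 and 124 CPM against 152, 151, 160 and 146 CPM (-0.47 ± 0.23, adjusted p = 0.701 in edgeR), and shares 1717 of 6345 exonic bases with the antisense gene Gm37885. In the decay and stability list, Khsrp, which binds AU-rich elements and promotes decay, was the 1 gene of 16 without overlap, against the same 9.31%. Khsrp was at 24.2, 25.7 and 24.2 CPM in the Dicer1-deleted libraries, against 12.7, 18.2, 16.8 and 13.7 CPM in the controls (0.69 ± 0.23, adjusted p = 0.419 in edgeR and 0.101 in DESeq2).

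**Figure D5:**
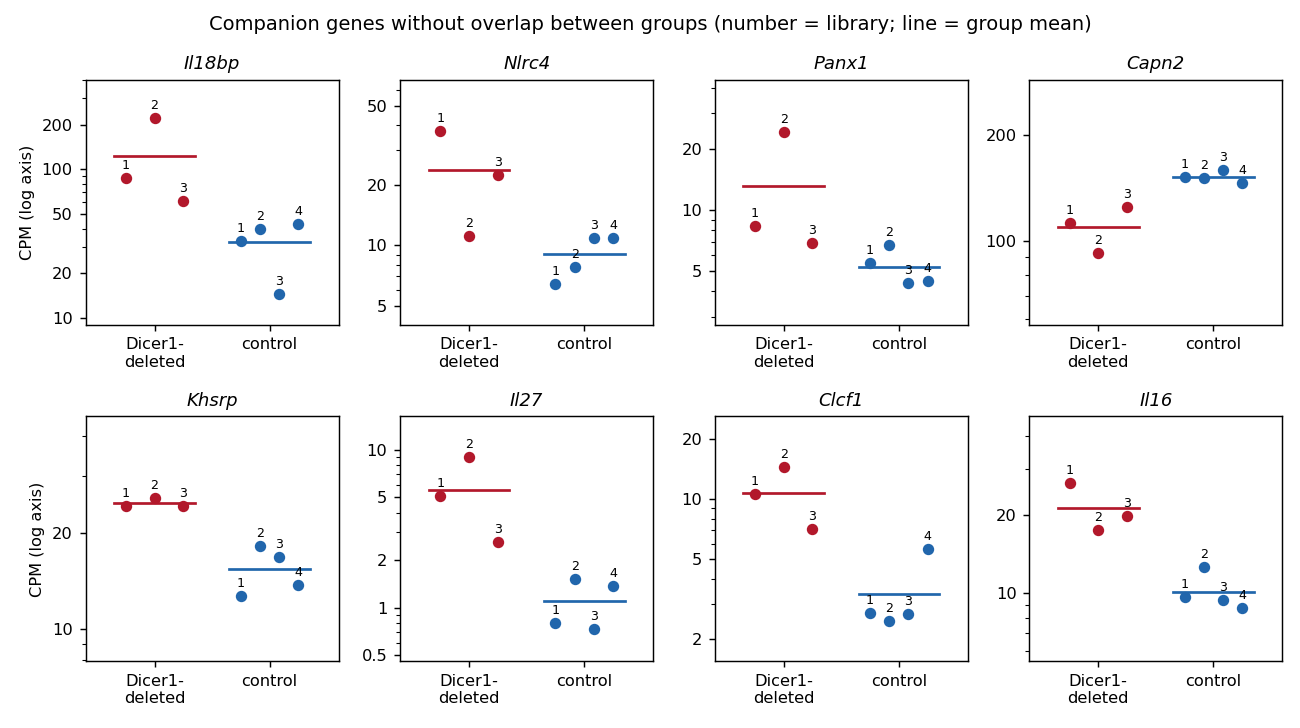
Counts-per-million (log axis) of the 8 named genes of receptors, maturation, message decay and other cytokines whose groups did not overlap, with points numbered by library and a line at each group mean. In 7 panels the Dicer1-deleted libraries lie above all controls, and in that of Capn2 they lie below, at 92.5 to 124 against 146 to 160 CPM.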

How the data were processed

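RNA of 7 libraries of sorted F4/80-positive cells (3 Dicer1-deleted, 4 control) was reverse transcribed and amplified with the SMARTer ultra low kit and made into Nextera XT libraries, per the labels' protocols, without keeping strand. Bowtie2 is named in the submitters' processing notes; for its version, the genome build, the annotation and the read counter, nothing is stated in the labels or headers. Per the file headers, the authors' files hold counts of uniquely placed reads per gene, expected counts that add shares of multiply placed reads, and RPKM values. All deposited unique counts were even, as each mate was counted as 1 read. The authors' RPKM values served only to order genes by level. The implied gene length was within 1% of the GENCODE exonic length for 5 of the 10 members, so the order rests on the authors' lengths.

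A gene not listed in a library was taken as 0 there (31124 values). Symbols came from GENCODE mouse release 21 by Ensembl ID, for 21813 of 24084 genes. Unique counts were tested in edgeR 4.0.16 (R 4.3.3) by its quasi-likelihood F test without covariates, after filterByExpr and TMM scaling, and p-values were adjusted by Benjamini-Hochberg over 16226 genes at 0.05. A positive log2 fold change means higher in Dicer1-deleted libraries. Ratios were taken with a prior count of 1 read and tested by exact permutation over 35 assignments. The expected counts were rounded for an alternative fit. Without molecular identifiers, reads are not independent molecules. Alternatives were other size factors, none, DESeq2 1.42.0 (11 genes without an adjusted p), limma-voom 3.58.1 with and without quality weights, no filter, 10 CPM in 3 libraries, the L code as covariate, read pairs, expected counts, a prior of 5 reads and leaving out each library; leaving out each library in DESeq2 was added after seeing the data. Scripts were first tested on simulated data in which 200 genes were changed. Of 100 genes changed 2-fold, edgeR recovered 4 and DESeq2 17, and of 100 changed 4-fold, 73 and 92. False calls were 4 of 81 in edgeR and 49 of 158 in DESeq2. A 2-fold change was thus seldom called there, and DESeq2 calls alone included many false ones.

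The members and lists were chosen with earlier results of these data known. Named genes are all members, their receptors, the called genes of the other lists and up to 4 per list without overlap whose mean reached 1 CPM, and the closest genes by correlation (3 per member were taken, at most 1 is named, and that of Tnf is not reported here). Capn2, Khsrp, Nlrc4 and Panx1 are named by this rule although no test called them.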

Additional observations from a re-analysis of the deposited data

Results flagged for a closer look

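In the control group, 3 of 43 results examined had 1 library set apart from the others. Its gap to the nearest of them took up more of the group's range than Dixon's 95% critical value for 4 samples allows. Chance flags about 1 in 20 where values are normal and independent, which was not tested here. Tnf was at 118.1 CPM in control library 4 and at 25.03 to 38.42 CPM in the other controls. Lifr was at 73.76 CPM in control library 3 and at 14.5 to 22.6 CPM in the others. Clcf1 was at 5.606 CPM in control library 4 and at 2.47 to 2.68 CPM in the others.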

How the results depend on the processing

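Of the 10 members, 0 were called under any alternative, and Il1b, Il10, Tgfb1, Il15 and Il18 kept their direction under all that were run. The sign of other members turned with the choice: Osm was at 0.0014 with other size factors (RLE) and in DESeq2, 0.10 in limma-voom and 0.34 with quality weights, Il1a at 0.13 and 0.28 and Il1rn at 0.046 with quality weights, and with the L code as covariate Il6 was at 0.037, Il1a at 0.29, Il1rn at 0.12 and Osm at 0.21. Leaving out each library moved Tnf from -0.33 to 1.05, Il6 from -0.85 to 0.35, Il1a from -0.89 to 0.72, Il1rn from -0.28 to 0.083, Osm from -0.21 to 0.45, the median of the members from -0.17 to 0.39 and the log2 ratio of Tnf to Il10 from -1.03 to 0.0034. Members without overlap numbered 1 without scaling factors and 0 to 3 with a library left out. The share of all genes without overlap is not given for these settings, so these counts cannot be judged against it. Of all genes, edgeR called 4; the count was 405 in DESeq2, 2 in limma-voom, 80 with quality weights, 42 without a filter, 1 at 10 CPM in 3 libraries, 0 with the L code, and 0 to 399 with a library left out in either tool. Companion genes called were 4 in DESeq2 and 0 to 5 with a library left out in either tool. The causes were not tested. No paired analysis was possible because the labels give the groups no shared replicate numbers.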
